A study of Cricetulus griseus with 24 samples.

Results

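The RNA of 8 ABC transporters that export drugs and organic anions was measured in Chinese hamster ovary (CHO) cells: Abcb1, Abcb1b, Abcb4, Abcc1, Abcc3, Abcc4, Abcc5 and Abcg2. They were taken by symbol from a table of RNA-seq read counts over 28037 genes, and each had 1 row. A0 is an antibody-producing clone of CHO DG44. Its makers transfected it with a plasmid for the IgG heavy chain and a plasmid for the light chain and neomycin phosphotransferase, and selected it with G418. A1 is the progeny of A0 after stepwise amplification with methotrexate, and it carries the same transgenes. CHO-S, whose libraries are titled NDST without further explanation in the labels, served as a line outside the DG44 lineage. Each line was sampled in exponential and in stationary phase. Each line is a single clone or stock, so a difference between lines cannot be told apart from a difference between clones. The study's medium recipe lists no methotrexate, and the sources used here do not say whether it was added to the sampled cultures.

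ABC transporters couple the hydrolysis of ATP to the movement of a substrate across a membrane. P-glycoprotein, the product of Abcb1 and in rodents also of Abcb1b, exports hydrophobic drugs, while the multidrug resistance proteins of the Abcc group export organic anions such as glutathione conjugates and folates. Methotrexate is a folate analogue, and Abcc1, Abcc3, Abcc4, Abcc5 and Abcg2 are known as exporters of it in other systems.

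The 24 libraries came from 20 cultures, where a culture is 1 numbered sample of 1 line in 1 phase. The labels do not say whether same-numbered samples of the 2 phases came from 1 flask. The main tests and the correlations treated them as separate, and a replicate block was run as an alternative to the tests. The exponential A0 cultures had 2 libraries each, whose reads were summed, which left 4 A0 cultures and 3 cultures of A1 and of CHO-S in each phase. The labels mark the added library as RLT for exponential A0 cultures 1 and 2 and as Duplicate for 3 and 4, without further explanation. Abcc1, Abcc3, Abcc4 and Abcc5 were lower in cultures 1 and 2 than in 3 and 4, also in the first libraries alone. Abcb1 and Abcb1b were higher in cultures 1 and 2, again also in the first libraries alone. In stationary A0, which has no RLT or Duplicate library, Abcc1 and Abcc4 were likewise lower in cultures 1 and 2. Abcb1 and Abcb1b were likewise higher there, whereas Abcc3 was higher and Abcc5 was mixed. Whether this goes with the labels was not tested. Levels are given as CPM, the reads of a gene relative to all reads on genes of that culture after TMM scaling. CPM are not corrected for gene length, so levels are compared between cultures and never between genes. The libraries held from 1038026 to 14652646 reads on genes. The shallowest was stationary CHO-S culture 1, the next shallowest library held 6532373 reads, and results that rest on that culture are given with and without it. Vim, which fibroblast-like CHO cells express, was between 727 and 1465 CPM in all 20 cultures, while the summed levels of epithelial, blood, endothelial, neural and liver markers reached at most 7.32 CPM. The labels number the cultures but do not say that they were thawed or seeded separately, so p-values measure only the spread between these cultures. In a bulk measurement, less RNA in each cell and fewer cells that hold the RNA cannot be told apart.

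Of the 8 transporters, 6 were measured and 2 were at the floor of the count table. Abcg2, an exporter of methotrexate and its polyglutamates, had 1 read in all exponential A0 cultures together, 1 read in the stationary A0 cultures and none in the other groups. Abcb4, which moves phosphatidylcholine across the membrane, had at most 2 reads in any culture. Over a whole group, 3 reads correspond to between 0.03 CPM in exponential A0 and 0.131 CPM in stationary CHO-S. This is a rough upper limit of the level in a group with no reads. Abcb4 had 4 reads in exponential A0, a mean of 0.0402 CPM, which is above the value for that group. Abcb4 passed the filter of at least 1 read in at least 2 cultures in 7 of 12 comparisons and Abcg2 in 3, and neither differed in any of them. The other 6 genes passed the filter in every comparison, in both groups.

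The coding sequences of Abcb1, Abcb1b and Abcb4 are close copies of each other. Reads that aligned to more than 1 place, from 12.7% to 14.8% of a library, were not counted, and how they would divide among the 3 genes is unknown. The levels of these genes are uncertain to that extent.

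**Figure D1:**
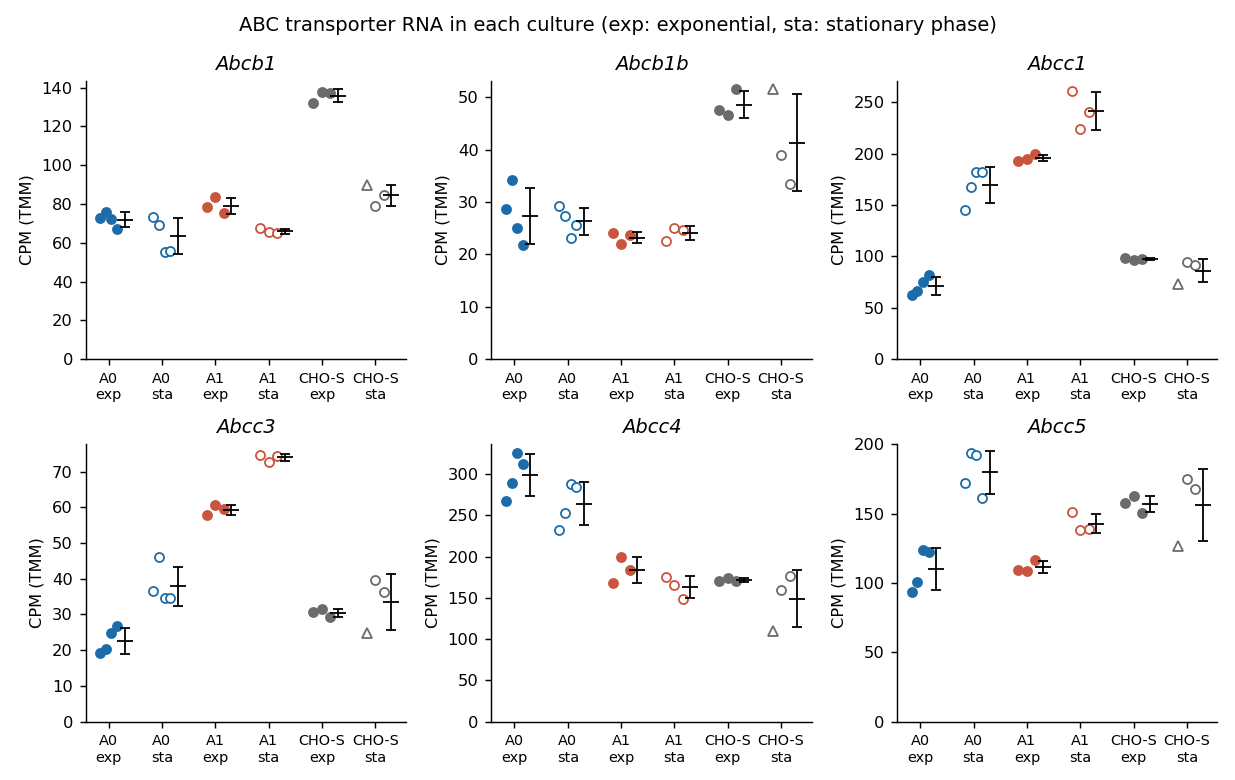
Level of each of the 6 measured transporters in CPM (vertical axes, from 0) in every culture of the 6 groups. Filled symbols are exponential and open symbols stationary cultures, the triangle is the shallow stationary CHO-S culture 1, and black bars give the mean and SD. The A1 cultures lie above all A0 cultures of the same phase for Abcc1 and Abcc3 and below them for Abcc4.

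The comparison of A1 with A0 asks how the transporters differ between the amplified line and its parent. The transporters did not move together. Abcc1 and Abcc3 were higher in A1 in both phases, Abcc4 was lower in both phases, and Abcc5 was lower in stationary phase. The P-glycoprotein genes did not pass the test in either phase. In exponential phase 2 members rose and 1 fell, and in stationary phase 2 rose and 2 fell, in the quasi-likelihood test of edgeR, with p-values adjusted over all genes by the Benjamini-Hochberg method and a threshold of 0.05.

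Of all genes tested, 25.9% passed in exponential phase, 12% as higher in A1 and 13.8% as lower. In stationary phase 33.7% passed, 16% as higher and 17.7% as lower. The median log2 difference of the 6 transporters was 0.07 in exponential and -0.04 in stationary phase, against -0.04 and -0.002 over all genes tested.

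Abcc1 (multidrug resistance protein 1) exports glutathione and glucuronide conjugates from the cell. In exponential A0 cultures 1 to 4 its level was 62.5, 66.3, 75.1 and 81.7 CPM. In exponential A1 cultures 1 to 3 it was 193, 195 and 199.6 CPM. Every A1 culture was above every A0 culture, and A1 was 2.74-fold higher (log2 difference 1.46, SE 0.098, adjusted p = 7.8e-08, edgeR). In stationary phase A0 cultures held 145, 168, 183 and 183 CPM. The A1 cultures held 261, 224 and 240.2 CPM. These groups also did not overlap, with a 1.41-fold difference (log2 difference 0.50, SE 0.09, adjusted p = 0.00062, edgeR). The line difference was smaller in stationary than in exponential phase, as the interaction test showed.

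Abcc3 (multidrug resistance protein 3) is known in liver and gut as a basolateral exporter of conjugated bile acids. The exponential A0 cultures had 19.1, 20.2, 24.8 and 26.8 CPM. The exponential A1 cultures had 57.8, 60.6 and 59.5 CPM. The groups did not overlap, and A1 was 2.61-fold higher (log2 difference 1.38, SE 0.116, adjusted p = 7.3e-07, edgeR). The stationary A0 cultures had 36.5, 46.1, 34.6 and 34.6 CPM. The stationary A1 cultures had 74.7, 72.7 and 74.4 CPM. Again all A1 cultures were higher, by 1.93-fold (log2 difference 0.95, SE 0.103, adjusted p = 9.4e-06, edgeR).

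Abcc4 (multidrug resistance protein 4) exports cyclic nucleotides, prostaglandins and folates. Its level in the exponential A0 cultures was 268, 289.5, 326 and 312 CPM. In the exponential A1 cultures it was 169, 199.9 and 184 CPM. All A1 cultures were lower, by 1.62-fold (log2 difference -0.70, SE 0.097, adjusted p = 0.0001, edgeR). In stationary phase the A0 cultures had 233, 253, 288 and 284 CPM. The A1 cultures had 176, 165 and 149 CPM. A1 was 1.63-fold lower without overlap (log2 difference -0.71, SE 0.089, adjusted p = 3.2e-05, edgeR), a difference of nearly the size seen in exponential phase.

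Abcc5 (multidrug resistance protein 5) is another exporter of cyclic nucleotides and folate analogues. It had 93.4, 100.8, 124 and 123 CPM in the exponential A0 cultures. The exponential A1 cultures, at 109, 109 and 116 CPM, fell within that range. The log2 difference was 0.02 with a 95% interval from -0.21 to 0.24 (adjusted p = 0.93, edgeR). In stationary phase the A0 cultures had 172.5, 193.5, 192 and 162 CPM. The A1 cultures had 151, 138 and 139 CPM, below all A0 cultures. There A1 was 1.27-fold lower (log2 difference -0.35, SE 0.082, adjusted p = 0.0047, edgeR).

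Abcb1, the first P-glycoprotein gene, had 72.8, 76.1, 72.2 and 66.9 CPM in the exponential A0 cultures. The exponential A1 cultures had 78.3, 83.4 and 75.2 CPM. The ranges overlapped at 1 culture of each line, and the 95% interval of the log2 difference ran from -0.06 to 0.32 (adjusted p = 0.31, edgeR). In stationary phase the A0 cultures had 73.3, 69.2, 55 and 55.8 CPM. The A1 cultures had 67.5, 65.5 and 65.0 CPM, inside the range of A0. Here the interval ran from -0.17 to 0.27 (adjusted p = 0.76, edgeR).

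Abcb1b, the second P-glycoprotein gene of rodents, had 28.7, 34.2, 24.9 and 21.7 CPM in the exponential A0 cultures. The exponential A1 cultures had 24.1, 21.9 and 23.6 CPM. A1 lay at the low end of the A0 range, with an interval of the log2 difference from -0.54 to 0.06 (adjusted p = 0.24, edgeR). In stationary phase the A0 cultures had 29.2, 27.3, 23.2 and 25.6 CPM. The A1 cultures had 22.5, 24.9 and 24.6 CPM. The groups overlapped and the interval ran from -0.36 to 0.09 (adjusted p = 0.35, edgeR).

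**Figure D2:**
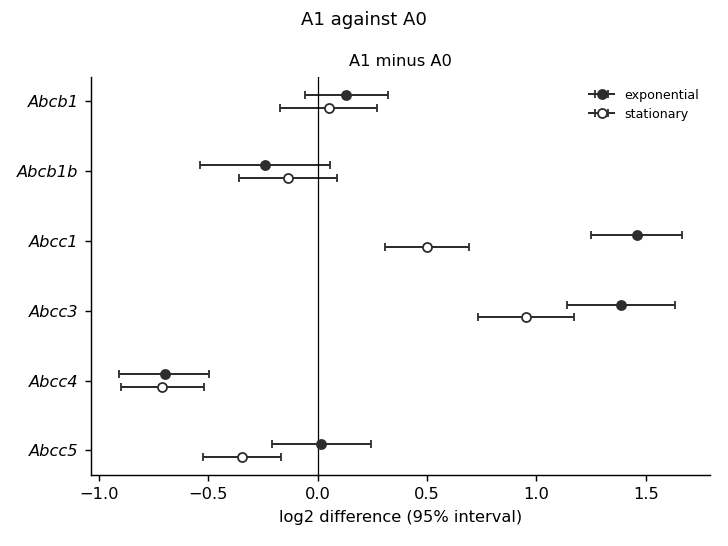
Log2 difference of A1 minus A0 for each transporter (horizontal axis) with its 95% interval from edgeR, in exponential (filled) and stationary (open) phase. The intervals of Abcc1 and Abcc3 lie above 0 and those of Abcc4 below 0 in both phases, that of Abcc5 lies below 0 in stationary phase only, and those of Abcb1 and Abcb1b cross 0.

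Abcc1 and Abcc4, which differed between A1 and A0 in opposite directions, were also set against each other within each culture. This ratio of reads needs no scaling between libraries, but it was chosen after the values were seen, is not corrected for gene length and was not tested. In exponential A0 there were 0.239 ± 0.0154 reads of Abcc1 per read of Abcc4 (SD, n = 4). In exponential A1 there were 1.07 ± 0.0861 (SD, n = 3). The stationary values were 0.641 ± 0.0167 in A0 (SD, n = 4) and 1.48 ± 0.129 in A1 (SD, n = 3). Exponential CHO-S, at 0.568 ± 0.0124 (SD, n = 3), lay between the A0 groups, and so did the mean of stationary CHO-S, at 0.59 ± 0.0737 (SD, n = 3). The 4 groups of A0 and A1 did not overlap, whereas the ranges of the 2 CHO-S groups did, with or without the shallow culture.

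**Figure D3:**
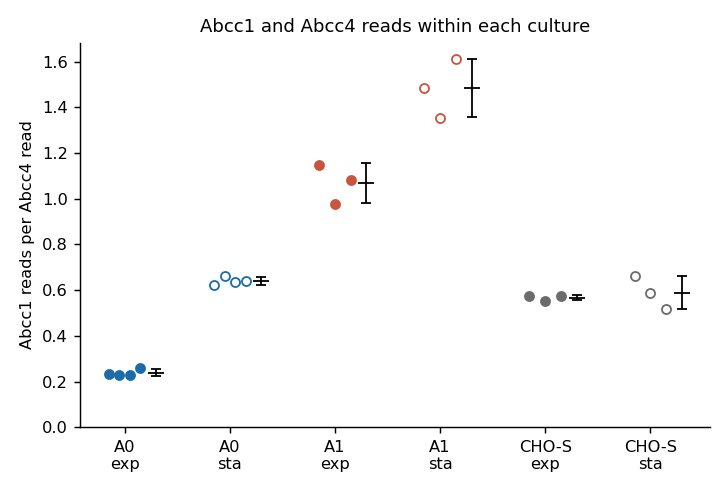
Reads of Abcc1 per read of Abcc4 (vertical axis, from 0) in each culture of the 6 groups, with black bars for the mean and SD. Exponential A0 cultures lie from 0.229 to 0.262, stationary A0 from 0.623 to 0.663, exponential A1 from 0.977 to 1.15 and stationary A1 from 1.35 to 1.61.

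The comparison of stationary with exponential phase asks how each line's transporters differed between the phases. Abcc1, Abcc3 and Abcc5 rose in both A0 and A1, and Abcb1 passed as lower in A1 and in CHO-S. In A0 the log2 change of Abcb1 was -0.20 (adjusted p = 0.17, edgeR) against -0.24 in A1. The interaction of line and phase between A1 and A0 did not pass for it (-0.08, adjusted p = 0.82, edgeR). Abcc4 and Abcb1b passed the test in none of the 3 lines. The number of transporters that passed was 3 in A0, 4 in A1 and 1 in CHO-S, where 37.7%, 33.4% and 13.3% of all genes passed. The median log2 change of the 6 transporters was 0.31, 0.20 and -0.17 in these lines, against 0.001, 0.03 and 0.02 over all genes.

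In A0, Abcc1 rose from a mean of 71.4 ± 8.66 to 169.5 ± 17.8 CPM (SD, n = 4 each), and no stationary culture was as low as an exponential one. This was a 2.36-fold change (log2 change 1.24, SE 0.11, adjusted p = 3.5e-07, edgeR). Abcc3 rose 1.66-fold in A0 (log2 change 0.73, SE 0.132, adjusted p = 0.00033, edgeR). Abcc5 rose 1.62-fold (log2 change 0.70, SE 0.11, adjusted p = 9.6e-05, edgeR). The stationary cultures were above all exponential cultures for both genes. For Abcb1, Abcb1b and Abcc4 the ranges of the A0 phases overlapped, and adjusted p was 0.17, 0.73 and 0.16 (edgeR).

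In A1, Abcc1, Abcc3 and Abcc5 rose as well. Abcc1 went from 196 ± 3.21 to 242 ± 18.6 CPM (SD, n = 3 each), a 1.25-fold rise (log2 change 0.32, SE 0.059, adjusted p = 7.5e-05, edgeR). Abcc3 rose 1.26-fold (adjusted p = 0.00012, edgeR) and Abcc5 1.29-fold (adjusted p = 1.1e-05, edgeR). Abcb1 went from 79.0 ± 4.12 to 66.0 ± 1.35 CPM (SD, n = 3 each), 1.18-fold lower (log2 change -0.24, SE 0.066, adjusted p = 0.0043, edgeR). The phases of A1 did not overlap for any of these 4 genes. None of the 4 passed when all 20 cultures shared 1 estimate of the spread, although their log2 changes stayed at 0.30, 0.32, 0.36 and -0.26 (adjusted p = 0.11, 0.14, 0.071 and 0.16, edgeR). In that fit 1245 of 21358 genes passed as higher and 1225 as lower. In the fit of A1 alone 2895 of 18548 passed as higher and 3301 as lower. Abcc4 had a log2 change of -0.16 in A1 that missed the threshold (adjusted p = 0.06, edgeR). It passed without exponential culture 1 (-0.22, adjusted p = 0.024, edgeR) or without stationary culture 1 (-0.21, adjusted p = 0.031, edgeR).

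In CHO-S, Abcb1 went from 132, 138 and 137.5 CPM to 89.8, 78.9 and 84.8 CPM. All stationary cultures were lower, by 1.61-fold (log2 change -0.69, SE 0.128, adjusted p = 0.015, edgeR). The call was lost when any culture other than stationary culture 1 was left out, with log2 changes from -0.70 to -0.63 and adjusted p from 0.073 to 0.1 (edgeR). Calls fell over all genes in these fits. Without exponential culture 2, 0 of 16938 genes passed. Without stationary culture 3, which left the most, 352 genes passed as higher and 222 as lower. With all cultures 1182 passed as higher and 1126 as lower. Without the shallow stationary culture 1, Abcb1 was at -0.73 (adjusted p = 2.3e-21, edgeR). Abcb1b, at -0.40 (adjusted p = 4.4e-06), Abcc3, at 0.34 (adjusted p = 0.0002), and Abcc5, at 0.13 (adjusted p = 0.02), then passed too in edgeR. In that fit 47.7% of all genes passed. The log2 change of Abcc1 in CHO-S was -0.16 with all cultures (95% interval from -0.48 to 0.17) and -0.06 without culture 1 (from -0.17 to 0.04).

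**Figure D4:**
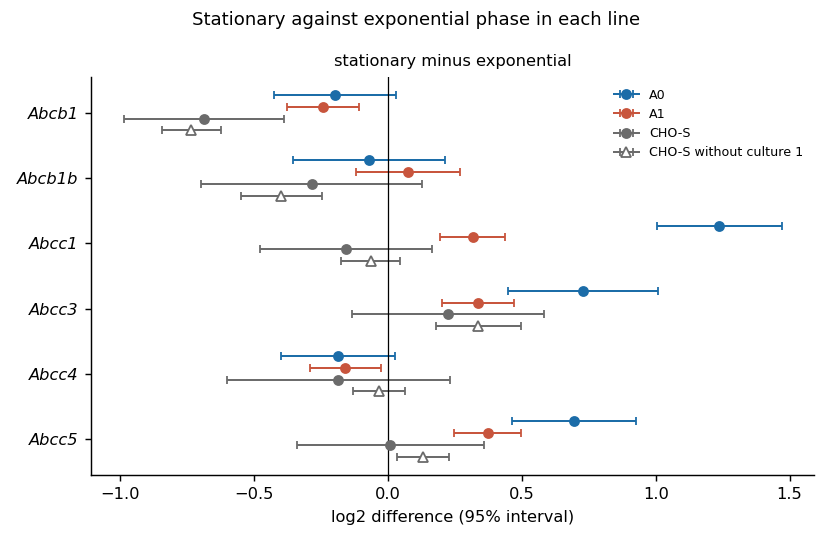
Log2 change from exponential to stationary phase (horizontal axis) with its 95% interval from edgeR in A0, A1 and CHO-S, and in CHO-S without the shallow stationary culture 1 (triangles). Abcc1 rose most in A0, by 1.24, against 0.32 in A1, while its intervals in CHO-S cross 0.

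Whether the phase change differed between lines was tested with the interaction of line and phase. Without a replicate block, Abcc1 was the one transporter of 6 that passed between A1 and A0, where 8.94% of all genes passed. Its phase change in A1 was smaller by 0.96 on the log2 scale (log2 difference -0.96, 95% interval from -1.24 to -0.67, adjusted p = 0.00015, edgeR). For Abcc3 the difference was -0.43 (adjusted p = 0.11, edgeR) and for Abcc5 it was -0.36 (adjusted p = 0.12, edgeR). With the replicate number as a block both passed, at -0.43 (adjusted p = 0.016, edgeR) and -0.37 (adjusted p = 0.022, edgeR), and 3 transporters were then called. Among all genes 1870 then passed as higher and 1565 as lower, against 1056 and 817 without the block. Same-numbered cultures deviated together between phases in A0 but not in A1. Abcc3 and Abcc5 also passed without exponential A0 culture 4, at -0.52 (adjusted p = 0.027, edgeR) and -0.42 (adjusted p = 0.044, edgeR). Among all genes 1492 passed as higher and 1161 as lower without that culture.

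The interactions with CHO-S were added after the values were seen. Between A0 and CHO-S, where 10.3% of all genes passed, the change of Abcc1 was larger in A0 by 1.37 (adjusted p = 0.0001, edgeR). The change of Abcc5 was larger by 0.67 (adjusted p = 0.039, edgeR). Abcc5 missed the threshold when any of 7 cultures was left out (exponential A0 culture 1 or 2, stationary A0 culture 1 or 3, or exponential CHO-S culture 1, 2 or 3), at 0.60 to 0.70 and adjusted p from 0.055 to 0.1. Calls over all genes fell in each of these fits. The fewest, 487 as higher and 888 as lower, came without exponential CHO-S culture 2, against 788 and 1371 with all cultures. Without stationary CHO-S culture 1 Abcc5 was at 0.61 (adjusted p = 0.0066, edgeR), and Abcb1 passed as well, at 0.58 (adjusted p = 0.01, edgeR), in a fit where 17.2% of all genes passed. With all cultures Abcb1 was at 0.49 (adjusted p = 0.089, edgeR), and it also passed in DESeq2 (0.50, adjusted p = 0.022), with all 20 cultures in 1 fit (0.51, adjusted p = 0.022) and with the 8 A0 libraries as samples (0.56, adjusted p = 0.026). Between A1 and CHO-S, where 7.6% of all genes passed, no transporter passed in edgeR, and 3 had an unadjusted p under 0.05. DESeq2 called 2, Abcb1 and Abcc1. It passed 958 of all 19662 genes as higher and 1060 as lower, against 754 and 741 in edgeR. Without stationary CHO-S culture 1, edgeR called 4 there, namely Abcb1 (0.47), Abcb1b (0.46), Abcc1 (0.36) and Abcc5 (0.22), and 25.4% of all genes passed.

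The comparison with CHO-S sets both DG44-derived lines against a line of another lineage. In exponential phase Abcb1 and Abcb1b were lower in A0 and in A1 than in CHO-S, as was Abcc5. Abcc1 and Abcc3 were below CHO-S in A0 and above it in A1. Abcc4 was above CHO-S in A0 and did not pass the test in A1. Since the CHO-S cultures are shared by both comparisons, their values are not independent.

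In exponential CHO-S, Abcb1b had 47.6, 46.6 and 51.5 CPM. Abcc1 had 97.9, 96.5 and 97.7 CPM, Abcc3 had 30.7, 31.4 and 29.2 CPM, Abcc4 had 170.2, 174 and 170.2 CPM and Abcc5 had 158, 163 and 151 CPM. No A0 culture reached into the CHO-S range of any of the 6 genes. The A1 cultures overlapped with CHO-S for Abcc4 only. The share of all genes without overlap between these groups is not given here, so these counts do not set the transporters apart.

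All 6 transporters passed the test between exponential A0 and CHO-S, where 49.5% of all genes passed. Abcb1 was 1.87-fold lower (log2 difference -0.90, adjusted p = 3.3e-07, edgeR) and Abcb1b 1.76-fold lower in A0 (-0.81, adjusted p = 0.00011). Abcc1 was at -0.44 (adjusted p = 0.0016), Abcc3 at -0.41 (adjusted p = 0.011) and Abcc5 at -0.50 (adjusted p = 0.00096) in edgeR, while Abcc4 was higher at 0.81 (adjusted p = 2.7e-06). The median over all genes was itself 0.14 in this comparison, against -0.47 over the 6 transporters.

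Between exponential A1 and CHO-S 5 transporters passed, and 57.2% of all genes did. Abcb1 was 1.73-fold lower in A1 (log2 difference -0.79, adjusted p = 3.8e-12, edgeR) and Abcb1b 2.1-fold lower (-1.07, adjusted p = 8.3e-12). Abcc1 was 2.01-fold higher (1.00, adjusted p = 5.4e-15, edgeR), Abcc3 1.94-fold higher (0.96, adjusted p = 5.4e-12) and Abcc5 1.41-fold lower (-0.50, adjusted p = 6.1e-09). Abcc4 was at 0.10 (adjusted p = 0.11, edgeR) and passed without exponential A1 culture 1 (0.14, adjusted p = 0.027). The median log2 difference was -0.20 over the 6 transporters and 0.06 over all genes.

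In stationary CHO-S cultures 1, 2 and 3, Abcb1b had 51.6, 39.0 and 33.5 CPM. Abcc1 had 73.3, 94.1 and 91.3 CPM, Abcc3 had 24.8, 39.8 and 36.2 CPM, Abcc4 had 110.4, 159.6 and 177 CPM and Abcc5 had 127, 175 and 168 CPM. Culture 1, the shallow one with 24 reads of Abcc3 and 123 of Abcc5, was the lowest of the 3 for the Abcc genes and the highest for Abcb1 and Abcb1b.

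Against stationary CHO-S, 3 transporters passed in A0, where 40% of all genes passed, and 3 in A1, where 34.8% did. Abcc1 was higher in both lines, 1.92-fold in A0 (log2 difference 0.94, adjusted p = 0.00085, edgeR) and 2.74-fold in A1 (1.45, adjusted p = 0.00028). Abcc4 was 1.74-fold higher in A0 (0.80, adjusted p = 0.0053, edgeR) and Abcc3 2.09-fold higher in A1 (1.06, adjusted p = 0.0025). Abcb1b was lower in A0 (-0.61, adjusted p = 0.018, edgeR) and in A1 (-0.74, adjusted p = 0.014). It lost the call in A0 without A0 culture 3 (adjusted p = 0.056), A0 culture 4 (0.05) or CHO-S culture 2 (0.075), and in A1 without any 1 of the A1 cultures (adjusted p = 0.059 to 0.071). Calls over all genes also fell in these fits. The median log2 difference of the 6 transporters was 0.14 in A0 and -0.03 in A1, against 0.08 and 0.06 over all genes.

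Leaving out stationary CHO-S culture 1 kept these calls and added others, among the transporters and among all genes. Abcb1, which had missed the threshold at -0.42 in A0 (adjusted p = 0.061, edgeR) and -0.37 in A1 (adjusted p = 0.076, edgeR), passed at -0.35 (adjusted p = 0.028) and -0.33 (adjusted p = 0.00012). Abcc5 in A1 went from -0.16 (adjusted p = 0.48, edgeR) to -0.29 (adjusted p = 0.00014). The number that passed was then 4 in A0, where 51.8% of all genes passed, and 5 in A1, where 57.4% did. The values without culture 1 were 0.89 for Abcc1 in A0 and 1.35 in A1, 0.67 for Abcc4 in A0, 0.92 for Abcc3 in A1, and -0.45 and -0.63 for Abcb1b in A0 and A1. With all cultures, Abcb1 did not overlap with CHO-S in either line. It passed with filterByExpr, at -0.408 in A0 (adjusted p = 0.044, edgeR) and -0.405 in A1 (adjusted p = 0.037). It also passed with all 20 cultures in 1 fit (adjusted p = 0.004 and 0.024, edgeR) and, in A1, in DESeq2 (adjusted p = 0.035). With the replicate block it did not pass (adjusted p = 0.27 and 0.19, edgeR).

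**Figure D5:**
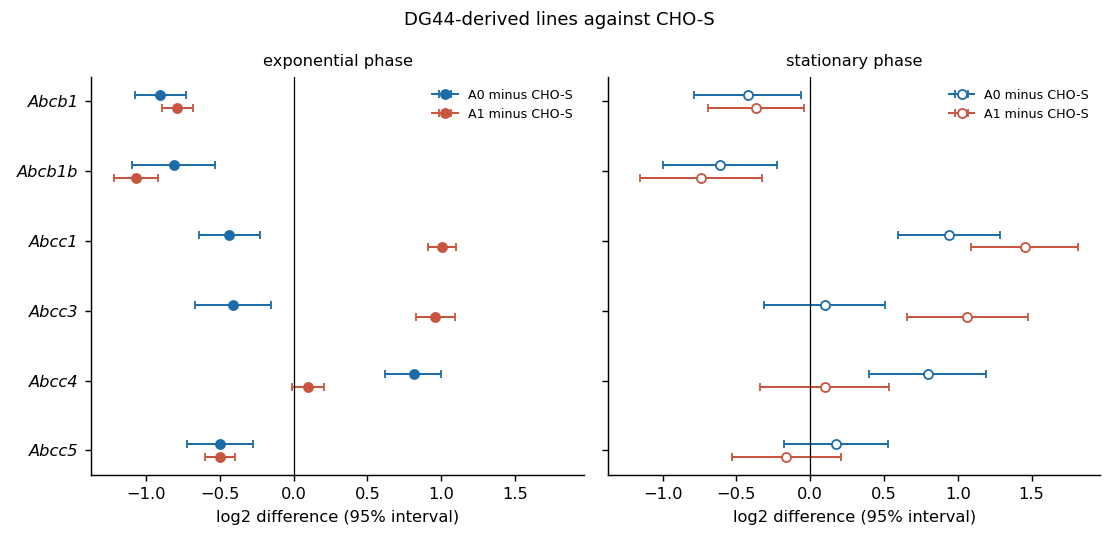
Log2 difference of A0 and of A1 from CHO-S (horizontal axes) with 95% intervals from edgeR, in exponential (left) and stationary (right) phase, all cultures included. In exponential phase Abcc1 and Abcc3 lie below 0 in A0 and above 0 in A1, and the intervals are wider in stationary phase.

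The order of the 6 groups differed between transporters. Abcc1 and Abcc3 shared the top of their order, with stationary A1 first and exponential A1 next, and neither overlapped with its neighbours. Exponential A0 was the lowest group for Abcc1 (71.4 CPM on average), where it overlapped with stationary CHO-S through culture 1 alone, and for Abcc3 (22.7 CPM), where it did not overlap with its neighbour, exponential CHO-S. Abcc4 had the exponential A0 group at the top (299 CPM) with stationary A0 overlapping it, and the 4 groups of A1 and CHO-S below overlapped from one to the next. Abcc5 ran from stationary A0 (179.9 CPM) to exponential A0 (110.2 CPM), and its only gap between neighbours was between stationary and exponential A1. Without stationary CHO-S culture 1 a further gap opened for Abcc5 between stationary CHO-S (171 CPM) and exponential CHO-S (157 CPM). Abcb1 had exponential CHO-S alone at the top (136 CPM) and overlapping neighbours below. For Abcb1b every group overlapped with the next, from exponential CHO-S (48.6 CPM) to exponential A1 (23.2 CPM), but the overlap of the CHO-S groups rested on stationary culture 1. Without that culture stationary CHO-S was at 36.2 CPM and lay below exponential CHO-S. It also stood just above stationary A0 for Abcc3 (38.0 against 37.9 CPM, overlapping), and stationary A0 then no longer touched its next neighbour, exponential CHO-S.

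Over the 20 cultures, the log2 levels of Abcc1 and Abcc3 had a Pearson correlation of 0.91 and those of Abcb1 and Abcb1b one of 0.81. Every other pair lay between -0.58 and 0.26. Cultures of a group share their clone and phase, so these values mainly repeat the order of the 6 groups and were not tested. Among 10588 genes with at least 5 CPM on average, the 2 most like Abcc1 were Pxk (r = 0.91) and Abcc3. Those most like Abcc3 were Ap2b1 (r = 0.96) and Myo1d (0.95), and those most like Abcc4 were Ppm1f (0.96) and Lmbr1 (0.95). Abcc5 was nearest to Gtpbp2 (0.93) and Habp4 (0.92), Abcb1 to Cxxc1 (0.95) and Itfg2 (0.94), and Abcb1b to Znf281 (0.94) and Tmem167a (0.94). The correlations are over n = 20 cultures.

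Genes that act beside the transporters were compared between A1 and A0 as lists. The counts are to be read against the shares of all genes that passed, 12% higher and 13.8% lower in exponential phase and 16% higher and 17.7% lower in stationary phase. Of 11 tested genes for methotrexate entry, retention and targets, 3 were higher and 2 lower in exponential A1 (median log2 difference 0.09), and 2 and 2 of 10 in stationary phase (median 0.10). The folate importer Slc46a1 was at 14.1 ± 0.301 CPM in exponential A1 (SD, n = 3) and 8.54 ± 0.837 CPM in A0 (SD, n = 4), a log2 difference of 0.73 (adjusted p = 0.00077, edgeR). The folate importer Slc19a1 was at 47.5 ± 4.02 CPM in A1 (SD, n = 3) and 34.7 ± 6.12 CPM in A0 (SD, n = 4), a log2 difference of 0.45 (adjusted p = 0.017, edgeR). In stationary phase these genes were at 0.32 (adjusted p = 0.084, edgeR) and 0.03 (adjusted p = 0.84). The 2 lower genes of the list were both at -0.39 in exponential phase and did not pass in stationary phase, at -0.08 and 0.06 (adjusted p = 0.47 and 0.71, edgeR).

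Glutathione is a co-substrate of Abcc1, and its synthesis and conjugation genes were counted as well. Of 11 tested, 5 were higher and none lower in exponential A1 (median log2 difference 0.31), whereas 3 were higher and 3 lower in stationary A1 (median 0.06). Gss, glutathione synthetase, was at 0.99 in exponential phase (adjusted p = 7.6e-07, edgeR) and at -0.31 in stationary phase (adjusted p = 0.011). Mgst1, a microsomal glutathione transferase, was at 0.69 (adjusted p = 0.00023, edgeR) and 1.23 (adjusted p = 0.00024) in these phases, and Gclm, the modifier subunit of glutamate-cysteine ligase, was at 0.56 in exponential phase (adjusted p = 0.0017) and at -0.01 in stationary phase (adjusted p = 0.93). Mgst2 also passed in exponential phase, at 0.595 CPM in A1 and 0.0787 CPM in A0, with at most 8 reads in a culture.

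Of 21 tested regulators and partners of the transporters, 2 were higher and 1 lower in exponential A1 (median log2 difference 0.14), and 4 and 1 in stationary A1 (median 0.04). In exponential phase these were Arnt, the dimer partner of the aryl hydrocarbon receptor (0.42, adjusted p = 0.0053, edgeR), the caveolar coat gene Cav1 (0.31, adjusted p = 0.018), and Rdx, radixin, which links membrane proteins to actin (-0.41, adjusted p = 0.0041). In stationary phase Arnt (0.39, adjusted p = 0.0018, edgeR) and Cav1 (0.375, adjusted p = 0.0075) passed and Rdx did not (-0.02, adjusted p = 0.89). Of 5 tested solute carriers of drugs, 2 were higher and none lower in each phase (medians 0.07 and 0.19). In exponential phase they were the nucleoside transporter Slc29a2 (0.32, adjusted p = 0.032, edgeR) and the organic anion transporter Slco3a1 (0.26, adjusted p = 0.046). In stationary phase Slc29a2 passed (0.64, adjusted p = 0.00045, edgeR) and Slco3a1 did not (0.185, adjusted p = 0.27).

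In the rest of the ABC family, 4 of 32 tested genes were higher and 3 lower in exponential A1 (median log2 difference 0.03), and 6 and 5 of 29 in stationary A1 (median 0.006). The mitochondrial transporter Abcb10 was at 0.68 (adjusted p = 0.0046, edgeR), the cholesterol exporter Abca1 at 0.67 (adjusted p = 0.0063) and Abcc2, the canalicular relative of Abcc1, at 0.65 (adjusted p = 0.016) in exponential phase. Abca13 was lower, with at most 3 reads in an A1 culture and 20 in an A0 culture. In stationary phase Abcb10 was at 0.58 (adjusted p = 0.0083, edgeR). Abca1 was at -0.03 (adjusted p = 0.84), Abcc2 at 0.40 (adjusted p = 0.14) and Abca13 at -1.12 (adjusted p = 0.18) in that phase, and did not pass.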

How the data were processed

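RNA-seq reads were aligned by the authors with STAR 2.5.4b to the Chinese hamster genome C_griseus_v1.0 and counted per gene with HTSeq-count 0.7.2, and the deposited counts are not normalized. The kit was stranded, but the strand setting of the counting is not given in the sources used here, so overlapping and antisense genes are uncertain. The 5 summary lines of HTSeq-count entered neither library sizes nor tests. They hold reads not aligned (2.31% to 11.5%), outside genes (11.9% to 32.8%), at more than 1 place (12.7% to 14.8%) and ambiguous (0.357% to 0.403%).

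The members and lists were chosen with earlier results of these data known. Genes were kept that had 1 or more counts in 2 or more cultures of a comparison and a variance over 0, a reading of the study's filter, whose wording also allows a stricter one. The test was that of edgeR 4.0.16 in R 4.3.3: TMM, quasi-likelihood test, two-sided, Benjamini-Hochberg adjustment over all genes, threshold 0.05. SE was the log2 difference divided by the square root of F. Tables used Python 3.11.15 with numpy 2.4.6 and pandas 2.3.3. Simulated data were used to check the test of A1 against A0 in exponential phase and the interaction of A1 and A0 only. They had the same spread for all genes and log2 differences of at least 1 in size. Smaller differences and the comparisons with CHO-S were not simulated. Alternatives were DESeq2 1.42.0, RLE scaling, filterByExpr, no filter, all cultures in 1 fit, a replicate block, other uses of the A0 libraries and leaving out each culture. Interactions with CHO-S and read ratios were added after the values were seen. Same-numbered A0 cultures deviated together between phases (correlations 0.189 to 0.432), and the replicate block changed no call in that comparison.

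The text names every member, the 2 genes with the highest Pearson correlation of log2(CPM + 0.5) to each measured member, and of each list at most 4 genes that passed in exponential phase with the largest log2 differences of A1 and A0. No sequences or coordinates of the build were used, so promoter motifs were not analysed here. Of the listed genes, 2 are not reported here and entered no count or median of their list.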

Additional observations from a re-analysis of the deposited data

Results flagged for a closer look

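Abcc3 in stationary A0 culture 2, at 46.1 CPM, lay apart from the other 3 cultures of its group (34.6 to 36.5 CPM), with a gap of 0.832 of the group's range. Of 12 sets of 4 cultures looked at (6 genes in both A0 groups), this was the only one with such a gap, and chance gives one in about 1 of 20 groups.

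The phase change of Abcc1 differed between A1 and A0 (-0.956 on the log2 scale) and between A0 and CHO-S (1.372), and that of Abcc5 differed between A0 and CHO-S (0.668), each by the interaction test of edgeR. The Abcc5 value was past the threshold with all cultures (adjusted p = 0.039) but not without any of 7 single cultures (0.60 to 0.70, adjusted p = 0.055 to 0.1). Calls over all genes also fell in those fits.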

How the results depend on the processing

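Of 72 log2 differences of the 6 measured transporters, 38 had the same direction, and stayed on 1 side of the threshold, in all alternatives run. Over single alternatives, 998 values did so, 33 newly passed, 24 no longer passed and 37 changed sign. All 37 concern differences that did not pass with all cultures, and the causes were not tested. Fits with a replicate block called no transporter between CHO-S phases (Abcb1 -0.69, adjusted p = 0.091, edgeR), called 3 in the interaction of A1 and A0 (Abcc1, Abcc3 and Abcc5), called Abcb1b between A1 and A0 in exponential phase (-0.33, adjusted p = 0.038) and Abcc4 between A1 phases (-0.16, adjusted p = 0.031), and lost Abcb1b between A0 and CHO-S in stationary phase (adjusted p = 0.088). With the block, 212 genes passed as higher and 138 as lower between CHO-S phases. In the interaction of A1 and A0 these counts were 1870 and 1565. Outside A0, same-numbered cultures did not deviate together in every pair (A1 phases -0.13 to 0.176, CHO-S phases -0.00508 to 0.117, between lines -0.188 to 0.0824). With all 20 cultures in 1 fit, 1245 genes passed as higher and 1225 as lower between A1 phases, and 0 transporters did. With the first A0 libraries alone, 1170 genes passed as higher and 1189 as lower in the interaction of A1 and A0. There 2 transporters passed. In the interaction of A1 and CHO-S, 2 passed in DESeq2 and 1 with filterByExpr. Of all genes, 958 passed as higher and 1060 as lower of 19662 in DESeq2. With filterByExpr these counts were 816 and 917 of 13609, and in the main fit 754 and 741 of 19662. DESeq2 moved the median of all genes there from 0.03 to -0.11, and in that of A0 and CHO-S from -0.03 to -0.15. Leaving out 1 culture gave 2 to 5 transporters between A1 and CHO-S in stationary phase, 0 to 4 between CHO-S phases, and 1 to 3, 1 to 3 and 0 to 4 in the interactions of A1 and A0, A0 and CHO-S, and A1 and CHO-S. The highest value of each of these ranges, except that of A1 and A0, came without stationary CHO-S culture 1. Calls over all genes were also highest there, at 57.4%, 47.7%, 17.2% and 25.4% in the order given. With all cultures these shares were 34.8%, 13.3%, 10.3% and 7.6%. The highest value for A1 and A0 came without exponential A0 culture 4, where 1492 genes passed as higher and 1161 as lower. Values that changed sign were near 0. For Abcc4 in the interaction of A1 and A0 they were 0.023 (no filter), 0.002 (all cultures) and 0.032 (first libraries). For Abcc4 in that of A0 and CHO-S they were 0.011 (replicate block) and 0.053 (8 A0 libraries), and in that of A1 and CHO-S -0.046 (DESeq2), -0.033 (RLE), -0.016 (filterByExpr) and -0.004 (all cultures). Abcc5 between CHO-S phases was at -0.006 with the replicate block. Leaving out 1 culture gave -0.065 to 0.086, -0.116 to 0.16 and -0.147 to 0.151 for Abcc4 in the same 3 interactions, -0.066 to 0.132 for Abcc5 between CHO-S phases, -0.053 to 0.074 for Abcc5 and -0.009 to 0.123 for Abcb1 between A1 and A0 in exponential and stationary phase. It gave -0.01 to 0.294 for Abcc3 between A0 and CHO-S and -0.067 to 0.207 for Abcc4 between A1 and CHO-S in stationary phase, -0.16 to 0.053 for Abcb1b between A0 phases, -0.023 to 0.201 for Abcb1b in the interaction of A1 and A0, and -0.02 to 0.195 for Abcc3 in that of A1 and CHO-S. Without TMM, 28 of 36 mean levels moved by less than 1 SD. Depth limits the detection of Abcb4 and Abcg2. The part of depth in the spread of stationary CHO-S was not tested.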
